A study of Mus musculus with 8 samples.

Results

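The mRNAs of the CPEB family and of the core factors of cytoplasmic polyadenylation were compared between oocytes lacking CNOT7 and CNOT8 (CNOT7&8 KO) and control oocytes carrying Zp3-Cre, both at the germinal vesicle (GV) stage. The group holds 9 genes of the 46078 in the count table, chosen by name: Cpeb1, Cpeb2, Cpeb3 and Cpeb4, the cleavage and polyadenylation specificity factor (CPSF) genes Cpsf1, Cpsf2, Cpsf3 and Cpsf4, and the symplekin gene Sympk. Of the 9 genes, 3 rose and 5 fell in CNOT7&8 KO oocytes, where 31.2% of all genes tested were called higher and 24.1% lower. The 5 that fell became 2 when libraries were scaled by size alone and 3 with scaling factors taken from genes of at least 10 counts per 1e6, so the calls on Cpeb1, Cpsf1 and Cpsf3 depend on the scaling. Cpeb2 rose 4.91-fold, Cpeb3 and Cpeb4 rose by less than 2-fold, Cpeb1 and 3 of the CPSF genes fell by less than 2-fold, and Sympk fell 2.83-fold. Cpeb1 remained the most abundant Cpeb mRNA in both groups, and its share of the family was smaller in every KO library than in any control library.

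Each group had 4 libraries of 100 fully grown GV oocytes each, from 4-week-old females on a C57BL/6J background, collected 48 h after an injection of pregnant mare serum gonadotropin (PMSG), which starts follicle growth. The KO was Cnot7 fl/fl, thus floxed at both Cnot7 alleles, Cnot8 fl/fl likewise, and carried Zp3-Cre, and the control carried Zp3-Cre. The Zp3 promoter drives Cre in growing oocytes, so both genes are lost during oocyte growth and the surrounding follicle cells keep them. The sources do not tie a library to particular animals, so p-values measure the spread between these pools of oocytes.

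Fully grown oocytes no longer transcribe and rely on stored mRNAs, many of which are kept silent with short poly(A) tails. CPEB proteins bind the cytoplasmic polyadenylation element (CPE), a U-rich sequence in the 3′UTR, and keep the mRNA repressed until meiosis resumes. CPSF then binds the AAUAAA polyadenylation signal, symplekin holds CPEB, CPSF and a poly(A) polymerase together, and the tail is lengthened and the mRNA translated. CNOT7 and CNOT8 are catalytic subunits of the CCR4-NOT complex, which shortens the tails.

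Total counts were 14943671 to 44092144 in the control libraries and 8639444 to 26784110 in the KO libraries, so that 3 counts, taken as the detection floor, lie between 0.0680 and 0.347 CPM (counts per 1e6 counts). Levels are given as CPM scaled by the trimmed mean of M values (TMM). Counts mapped to Cnot8 fell from 154 to 197 CPM in controls to 33.1 to 36.1 CPM in KO, and those mapped to Cnot7 from 886 to 1049 to 622 to 789 CPM; which exons were floxed is not given in the sources used here. The 10 oocyte markers summed to 18273 to 21267 CPM in controls and 14770 to 17194 CPM in KO. The 12 granulosa and cumulus markers summed to 82.5 to 117 and 97.4 to 190 CPM. Foxl2 had no more than 3 counts in any library. Of the 11 tested, 5 were called higher in KO, where 31.2% of all genes tested were called higher, and 5 were not called. Gja1 rose 4.06-fold, Inha 3.77-fold, Fshr 2.95-fold, Kitl 2.70-fold and Inhba 2.18-fold. Of all genes tested, 23.8% were called higher with a fold change of at least 2. The groups overlapped for Gja1, Inha and Inhba. The median log2 change of the 11 was 1.12, and that of all genes tested was 0.12. Cyp19a1, the 1 called lower, had the highest control mean of these markers and went from 58.5 CPM in controls to 31.3 CPM in KO. The 7 blood and immune markers summed to 0.775 to 1.83 and 3.04 to 5.18 CPM. Hba-a1, Hbb-bs and Cd3e had no more than 3 counts in any library, and the 2 tested, Ptprc and Cd68, were called higher. The part of these other cells in the results was not tested, and in pooled libraries fewer cells of a type and less RNA per cell cannot be told apart. Control library 1 and KO library 4, the deepest of their groups, often lay at the edge of their group; without both, the same 3 genes rose and the same 5 fell.

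The recognition sequences shown here are the CPE nearest to the 3′ end of the Cpeb genes and Cpsf2 and, for Cpeb2, Cpeb3 and Cpeb4, the polyadenylation signal that follows it, because they are the elements these proteins read in mRNAs and because the Cpeb mRNAs carry them too. They were read from GRCm38 within the longest annotated 3′UTR of each gene, on the mRNA strand and with T for U. Each is shown as a window of 30 bases, with only the motif named on its line (TTTTAT or AATAAA) in capitals. The window of the Cpeb3 CPE also holds an AATAAA, left in lower case. A TTTTAT and an AATAAA cannot overlap each other, although copies of the same motif can. A match is a description of the sequence and not a binding site that was measured.
Cpeb1 CPE, chr7:81347332-81347361, minus strand: cttccttacaacTTTTATttgacgaatgta
Cpeb2 CPE, chr5:43289554-43289583, plus strand: taatttagtttaTTTTATtgttatcttcca
Cpeb2 polyadenylation signal, chr5:43289690-43289719, plus strand: tgttgactgactAATAAActattaagttat
Cpeb3 CPE, chr19:37021506-37021535, minus strand: ggaataaattaaTTTTATgatgctaattct
Cpeb3 polyadenylation signal, chr19:37021301-37021330, minus strand: ggacaattggatAATAAAacgacagaatga
Cpeb4 CPE, chr11:31935406-31935435, plus strand: gggtaattcattTTTTATtaaagtcatttt
Cpeb4 polyadenylation signal, chr11:31935604-31935633, plus strand: agatgttgaatgAATAAAacttttaactca
Cpsf2 CPE, chr12:102005788-102005817, plus strand: ctcttccagacaTTTTATaaagaatcatgt

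Of the Cpeb genes, Cpeb1 was the only member that fell, while Cpeb2, Cpeb3 and Cpeb4 all rose. CPEB1 is the founding member of the family and the main CPE-binding protein of the immature oocyte, whereas CPEB2, CPEB3 and CPEB4 form a closely related subfamily. Cpeb1 (ENSMUSG00000025586, chr7:81347026-81455465, minus strand) was measured at 438, 309, 240 and 306 CPM in control libraries 1 to 4 and at 216, 208, 203 and 257 CPM in KO libraries 1 to 4. Control library 3 lay below KO library 4, so the groups overlapped. The mean was 323 ± 82.8 CPM (SD, n = 4) in controls and 221 ± 24.9 CPM (SD, n = 4) in KO, a log2 change of -0.55 ± 0.16 (SE). This passed the quasi-likelihood test of edgeR, adjusted by Benjamini-Hochberg over the 19241 genes tested (adjusted p = 0.0129), and the exact permutation test of the single value, two-sided, gave p = 0.0571. The smallest p that 4 against 4 libraries allow in that test is 0.0286.

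Cpeb2 (ENSMUSG00000039782, chr5:43233170-43289724, plus strand) had the lowest mean of the 9 mRNAs in both groups, although in KO library 4 it lay above Sympk and Cpsf1. Its level was 3.96, 1.53, 1.97 and 2.19 CPM in the control libraries, from 148, 31, 29 and 30 counts, and 9.12, 7.14, 11.2 and 20.9 CPM in the KO libraries, from 84, 130, 182 and 613 counts. Every KO library lay above every control library, with KO library 4 far above the rest. Mean levels were 2.41 ± 1.07 CPM (SD, n = 4) in controls and 12.1 ± 6.09 CPM (SD, n = 4) in KO, a log2 change of 2.30 ± 0.37 (SE; adjusted p = 0.000241, edgeR quasi-likelihood test). With a fold change of at least 2 besides the adjusted p of at most 0.05, Cpeb2 was a differentially expressed gene (DEG). The exact permutation p was 0.0286.

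Cpeb3 (ENSMUSG00000039652, chr19:37021291-37208601, minus strand) had 76.0, 49.7, 49.0 and 53.9 CPM in the control libraries and 83.1, 85.2, 86.8 and 128 CPM in the KO libraries. The groups did not overlap, and control library 1 and KO library 4 were each the highest of their group. Its mean rose from 57.2 ± 12.8 to 95.8 ± 21.6 CPM (SD, n = 4 each), by 0.74 ± 0.18 on the log2 scale (SE; adjusted p = 0.00391, edgeR quasi-likelihood test), with an exact permutation p of 0.0286. Cpeb4 (ENSMUSG00000020300, chr11:31872211-31935634, plus strand), whose protein is known to take over from CPEB1 late in frog meiosis, had 113, 76.4, 71.9 and 73.1 CPM in the control libraries and 106, 101, 115 and 181 CPM in the KO libraries. Here control library 1 lay above KO libraries 1 and 2, so the groups overlapped. Mean Cpeb4 levels were 83.6 ± 19.7 and 126 ± 37.6 CPM (SD, n = 4 each), with a log2 change of 0.59 ± 0.20 (SE; adjusted p = 0.0268, edgeR quasi-likelihood test) and an exact permutation p of 0.0857. The call on Cpeb4 was lost when control library 2, 3 or 4 was left out, with log2 changes of 0.55, 0.52 and 0.53.

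**Figure D1:**
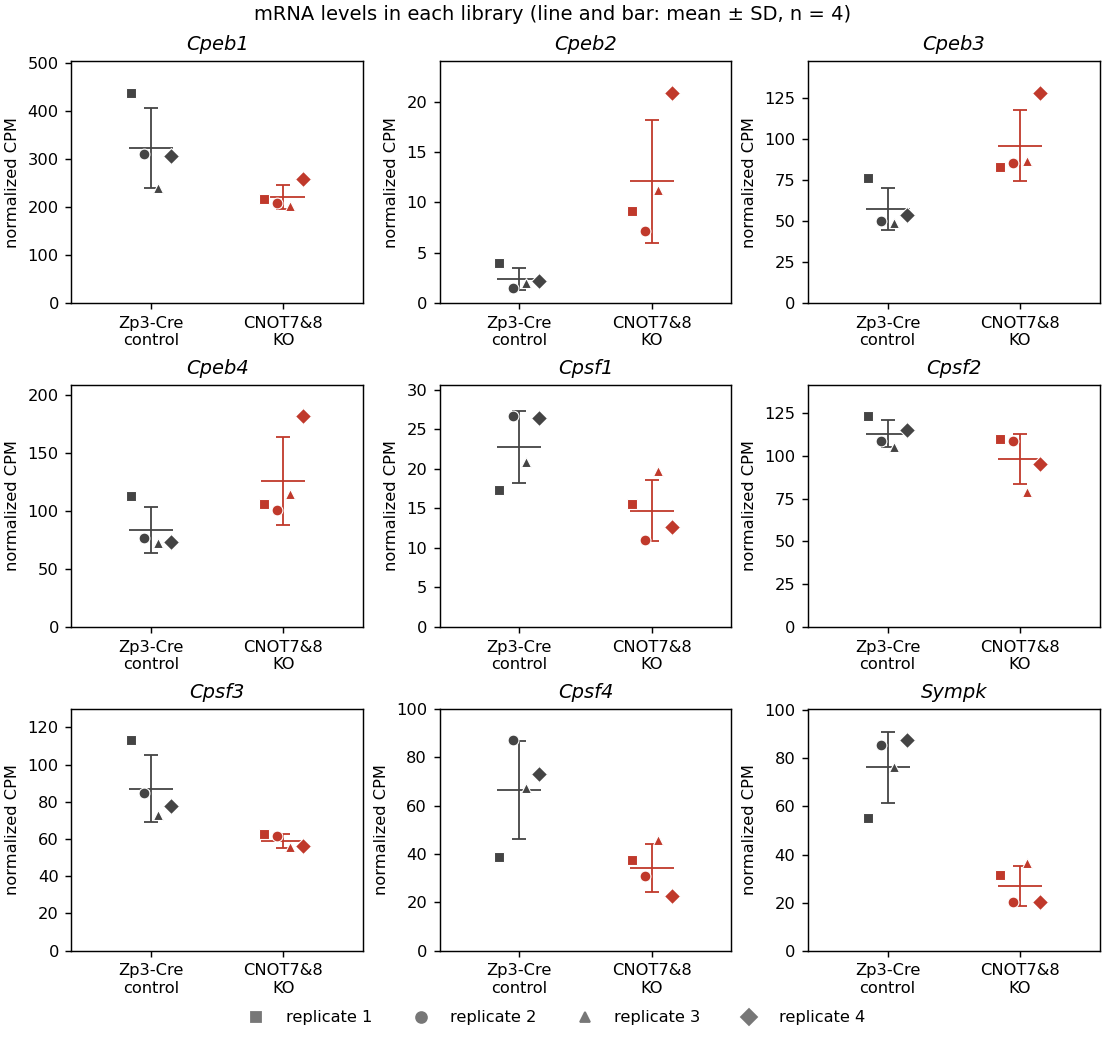
Levels of the 9 mRNAs in each library, as TMM-scaled CPM on the vertical axis of each panel, for Zp3-Cre control and CNOT7&8 KO oocytes. Symbols mark the replicate number, and the line and bar are the mean ± SD of 4 libraries. Cpeb2, Cpeb3, Cpsf3 and Sympk show no overlap between the groups, with Sympk at 55.3 to 87.6 CPM in controls and 20.1 to 36.6 CPM in KO.

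The CPSF genes and Sympk moved the other way from Cpeb2, Cpeb3 and Cpeb4: 4 of these 5 genes fell, where 24.1% of all genes tested were called lower, and Cpsf2 did not pass the test. With library size alone, Cpsf4 and Sympk were still called lower, Cpsf1 and Cpsf3 were not, and the value of Cpsf2 turned positive (0.079). Sympk (ENSMUSG00000023118, chr7:19024377-19054618, plus strand), which encodes the scaffold that joins CPEB to CPSF, fell furthest. It had 55.3, 85.5, 76.6 and 87.6 CPM in the control libraries and 31.4, 20.2, 36.6 and 20.1 CPM in the KO libraries. The lowest control library, control 1, lay above the highest KO library. Mean Sympk levels were 76.3 ± 14.7 and 27.1 ± 8.27 CPM (SD, n = 4 each), a log2 change of -1.50 ± 0.22 (SE; adjusted p = 0.000107, edgeR quasi-likelihood test) and an exact permutation p of 0.0286, which made it the DEG that fell among the 9.

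Cpsf4 (ENSMUSG00000029625, chr5:145167213-145182041, plus strand) encodes the zinc-finger subunit that contacts the AAUAAA signal together with WDR33. It had 38.9, 87.1, 67.4 and 73.1 CPM in the control libraries and 37.4, 31.0, 45.8 and 22.7 CPM in the KO libraries. Control library 1 lay below KO library 3, and the other 3 control libraries lay above all KO libraries. The mean went from 66.6 ± 20.3 to 34.2 ± 9.79 CPM (SD, n = 4 each), a log2 change of -0.97 ± 0.25 (SE; adjusted p = 0.00580, edgeR quasi-likelihood test), with an exact permutation p of 0.0571. The change sat just under the 2-fold limit and passed it when control library 1, KO library 1 or KO library 3 was left out, which gave 2 DEGs that fell in place of 1.

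Cpsf3 (ENSMUSG00000054309, chr12:21285391-21315056, plus strand), the endonuclease that cuts the pre-mRNA, had 113, 84.5, 72.9 and 78.0 CPM in the control libraries and 62.7, 61.8, 55.5 and 56.4 CPM in the KO libraries. The KO libraries were tightly grouped and lay below all control libraries. Its mean fell from 87.1 ± 18.0 to 59.1 ± 3.67 CPM (SD, n = 4 each), a log2 change of -0.56 ± 0.14 (SE; adjusted p = 0.00513, edgeR quasi-likelihood test), with an exact permutation p of 0.0286. Exons of Cpsf3 overlap those of Itgb1bp1 on the opposite strand, which had 8537 counts over the 8 libraries, and whether strand was used in counting is not given in the sources used here. The other overlaps of exons on opposite strands in the table were with Adck5 for Cpsf1 (302 counts), A330032B11Rik for Cpeb3 (143 counts) and Gm7854 for Cpeb2 (7 counts).

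Cpsf1 (ENSMUSG00000034022, chr15:76595803-76607591, minus strand), the large scaffold subunit of CPSF, had 17.2, 26.6, 20.8 and 26.4 CPM in the control libraries and 15.5, 10.9, 19.7 and 12.6 CPM in the KO libraries. KO library 3 lay above control library 1, so the groups overlapped. The means were 22.8 ± 4.55 and 14.7 ± 3.85 CPM (SD, n = 4 each), a log2 change of -0.63 ± 0.21 (SE; adjusted p = 0.0207, edgeR quasi-likelihood test), with an exact permutation p of 0.0571. This call was lost without control library 2 or 4 or KO library 1, 2 or 4, with log2 changes from -0.64 to -0.50. Cpsf2 (ENSMUSG00000041781, chr12:101975988-102006424, plus strand), the catalytically inactive partner of CPSF3, had 123, 109, 105 and 115 CPM in the control libraries and 110, 109, 78.9 and 95.6 CPM in the KO libraries. KO libraries 1 and 2 lay within the control range. Mean Cpsf2 levels were 113 ± 7.93 CPM in controls and 98.2 ± 14.4 CPM in KO (SD, n = 4 each). The log2 change of Cpsf2 was -0.20 with a 95% interval from -0.47 to 0.067 (adjusted p = 0.182, quasi-likelihood test of edgeR).

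Against all genes tested, the number of called genes was 8 of 9, where 55.2% of the 19241 genes were called, 31.2% as higher and 24.1% as lower in KO. The DEGs were Cpeb2 and Sympk, 2 of the 9, where 30.4% of all genes tested were DEGs, 23.8% higher and 6.56% lower in KO. The groups did not overlap for 4 of the 9 genes, while 48.4% of all genes tested did not overlap. The median log2 change of the 9 genes was -0.55, and that of all genes tested was 0.12.

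How the libraries were scaled decided some of these calls. With library size alone, the median change of all genes rose by 0.29 on the log2 scale, and Cpeb1 (-0.26), Cpsf1 (-0.35) and Cpsf3 (-0.27) no longer passed the test, while Cpsf2 changed sign without a call (0.079). Cpeb3 then passed the 2-fold limit. Cpeb2, Cpeb3, Cpeb4, Cpsf4 and Sympk kept their direction and their call under each of the other 4 scalings tried.

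**Figure D2:**
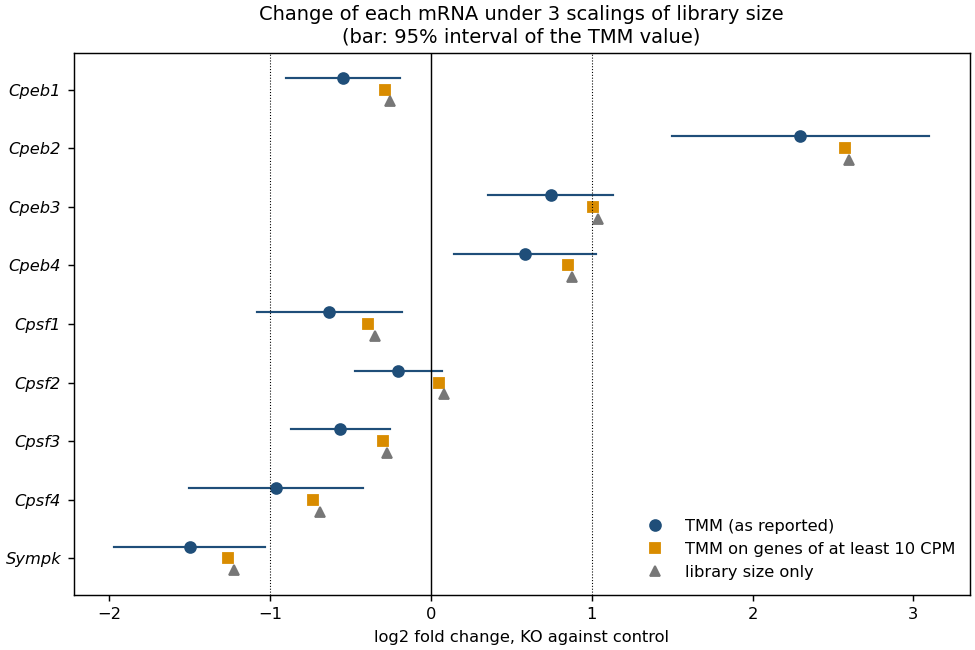
Log2 fold change of each of the 9 mRNAs in CNOT7&8 KO against control oocytes, on the horizontal axis, under TMM scaling (circles, with the 95% interval), TMM on genes of at least 10 CPM (squares) and library size alone (triangles). Dotted lines mark a 2-fold change. The shift between scalings is nearly the same for every gene, so Sympk and Cpeb2 stay on their sides while Cpsf2 moves from -0.20 to 0.079.

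Levels of different genes were compared as CPM per kilobase of merged exons (RPKM). In control oocytes Cpeb1 had the highest level of the 9, 77.1 ± 19.8 RPKM, at rank 720 of 19126 genes. Cpsf2 (19.7 RPKM), Cpsf4 (18.5 RPKM), Cpsf3 (16.5 RPKM) and Cpeb4 (13.1 RPKM) followed, and each of these neighbours overlapped the next across the 4 control libraries. Cpeb3 (7.71 RPKM), Sympk (7.24 RPKM) and Cpsf1 (4.04 RPKM) came next, of which Cpeb3 and Sympk overlapped while Sympk and Cpsf1 did not, and Cpeb2 was last with 0.309 RPKM, at rank 13438. In KO oocytes Cpeb1 was still first, with 52.7 RPKM at rank 847. Cpeb4 (19.7 RPKM) and Cpeb3 (12.9 RPKM) had moved to rank 2664 from 4086 and to rank 3855 from 5533, and Sympk (2.57 RPKM) had moved to rank 9214 from 5716. On the length of the longest transcript in place of the merged exons, Cpsf3 came to 34.9 RPKM and Cpsf4 to 22.4 RPKM in controls, both above the 19.7 RPKM of Cpsf2, and Sympk lay above Cpeb4 (13.3 RPKM) and Cpeb3 (9.69 RPKM) rather than below both, so the order of the 9 genes depends on the length used.

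The makeup of the Cpeb family differed between the groups. Cpeb1 held 78.6, 79.6, 75.9 and 79.3% of the Cpeb reads per kilobase in the control libraries and 64.0, 63.7, 60.8 and 55.9% in the KO libraries. No KO library reached the lowest control library. The mean share of Cpeb1 was 78.4 ± 1.69% in controls and 61.1 ± 3.77% in KO (SD, n = 4 each; exact permutation p = 0.0286). Cpeb4 went from 13.4 ± 1.09% to 22.4 ± 2.58%, Cpeb3 from 7.90 ± 0.642% to 14.8 ± 0.755% and Cpeb2 from 0.308 ± 0.0717% to 1.72 ± 0.543%, each without overlap and with the same exact permutation p of 0.0286 (n = 4 each). These shares add up to 100%, so they are not independent of each other, and they do not depend on how library sizes were scaled. The summed level of the Cpeb genes was 98.3 ± 24.5 RPKM in controls and 86.9 ± 15.3 RPKM in KO (exact permutation p = 0.543, n = 4 each).

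**Figure D3:**
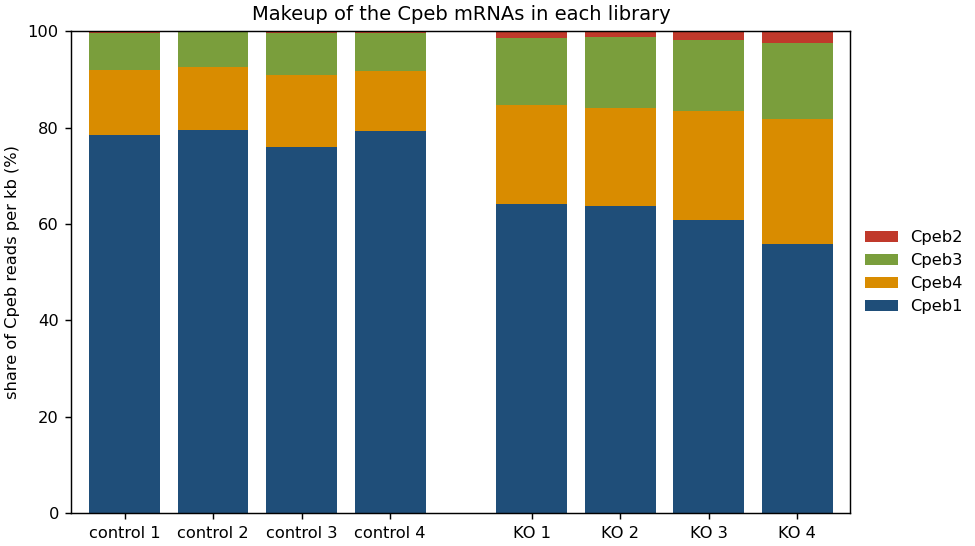
Share of each Cpeb gene in the Cpeb reads per kilobase of each library, in percent on the vertical axis, for control libraries 1 to 4 and KO libraries 1 to 4. Cpeb1 takes 75.9 to 79.6% of every control bar and 55.9 to 64.0% of every KO bar, and the Cpeb3 and Cpeb4 segments are larger in every KO bar.

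Ratios between members within a library were compared in 16 pairs, 6 among the Cpeb genes and 10 among the CPSF genes and Sympk. For 7 pairs the groups did not overlap, each with an exact permutation p of 0.0286, which after Benjamini-Hochberg adjustment over the 16 pairs was 0.0653, so no pair passed the 0.05 threshold. Cpeb1 outnumbered Cpeb2 by 260-fold in controls and by 36.9-fold in KO (means on the log2 scale), Cpeb3 by 9.93-fold and 4.13-fold, and Cpeb4 by 5.85-fold and 2.74-fold. The ratio of Cpeb3 to Cpeb4 was 0.588 in controls and 0.664 in KO, with overlapping groups (exact permutation p = 0.0571). Sympk was lower relative to Cpsf1 and Cpsf4 in every KO library than in any control library: the log2 ratio of Cpsf1 to Sympk rose by 0.88 ± 0.085 (SE) and that of Cpsf4 to Sympk by 0.57 ± 0.15 (SE). Among Cpsf1, Cpsf2, Cpsf3 and Cpsf4 themselves the groups overlapped for every pair.

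The 3 genes that rose have long 3′UTRs with many CPE letters. Cpeb2 has 20 copies of TTTTAT in 3778 bases, Cpeb4 has 11 in 4102 bases and Cpeb3 has 6 in 3569 bases. Of the 3′UTRs of tested genes of like length (the shorter at least 0.8 times the longer), 90.2%, 90.7% and 89.1% hold at least 1 copy, and 0%, 2.66% and 20.4% hold as many copies or more, so the count stood out for Cpeb2 and Cpeb4 and was within the usual range for Cpeb3. Cpsf2, which was not called, has 7 copies in 3203 bases, where 87.4% of 3′UTRs of like length hold at least 1 and 9.38% hold as many or more. Cpeb1 has 2 copies in 1315 bases, where 63.3% of 3′UTRs of like length hold at least 1, and Cpsf4 has 2 in 837 bases, where 49.8% do. In the short 3′UTRs of Cpsf1 (79 bases), Sympk (100 bases) and Cpsf3 (307 bases) the letters were not found, and 8.42%, 10.4% and 25.1% of 3′UTRs of like length hold them.

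The 3′UTR length moved with the direction of change across all genes too. Of 2307 tested genes with a 3′UTR of at least 3000 bases, 37.6% were higher and 20.5% lower in KO, with a median log2 change of 0.22. Of 9163 genes with a 3′UTR under 1500 bases, 27.5% were higher and 31.1% lower, with a median of -0.066. These limits were chosen after the values of the 9 genes were seen, and the part of 3′UTR length in the changes was not tested.

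**Figure D4:**
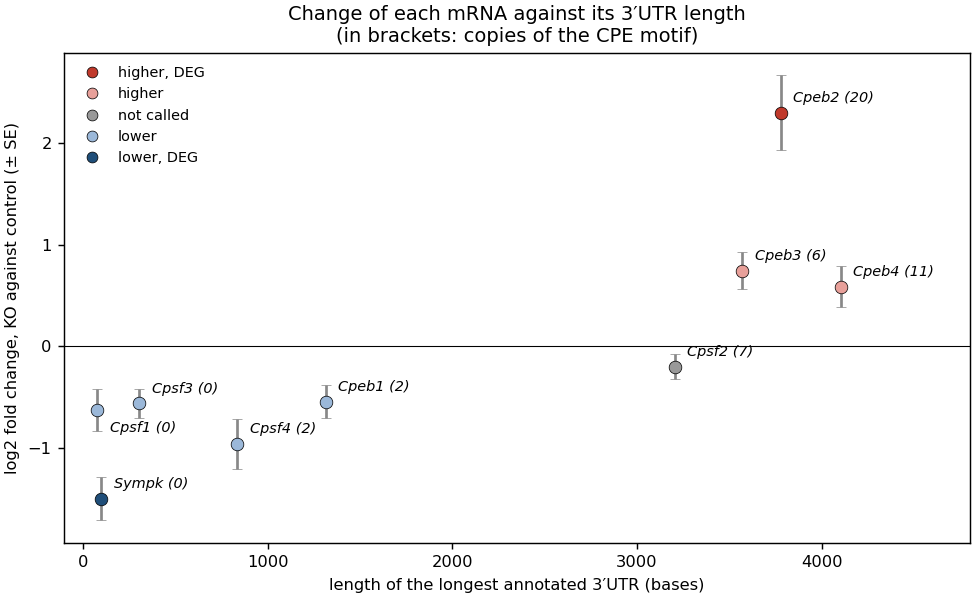
Log2 fold change (± SE) of each of the 9 mRNAs in KO against control oocytes, on the vertical axis, against the length of its longest annotated 3′UTR in bases. The number of TTTTAT copies stands in brackets and colours give the call. Cpeb2, Cpeb3 and Cpeb4 lie at 3569 to 4102 bases above zero, and the 5 genes that fell lie at 79 to 1315 bases below zero.

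The rest of the 3′-end processing machinery did not move in a single direction: of 16 further genes, 9 rose and 5 fell, where 31.2% of all genes tested were called higher and 24.1% lower, with a median log2 change of 0.58 against 0.12 for all genes tested. The 5 that fell became 3 with library size alone or with TMM on genes of at least 10 CPM. Of the core CPSF partners, Fip1l1, which tethers the poly(A) polymerase to CPSF, fell from 493 ± 50.3 to 215 ± 8.23 CPM (SD, n = 4 each; log2 change -1.19 ± 0.10, SE; adjusted p = 2.45e-06, edgeR quasi-likelihood test). Its control libraries spanned 432 to 556 CPM and its KO libraries 206 to 226 CPM. Wdr33, whose protein reads the AAUAAA signal with CPSF4, fell from 198 to 216 CPM in controls to 131 to 160 CPM in KO, and Papola, the canonical nuclear poly(A) polymerase, from 127 to 199 CPM to 81.1 to 108 CPM. The other genes that fell, named after their values were seen, were the oocyte-enriched Cpsf4 paralog Cpsf4l (from 1084 to 626 CPM on average) and Cstf1 (from 102 to 73.4 CPM). Wdr33 and Cstf1 were no longer called with library size alone (-0.21 and -0.19) or with TMM on genes of at least 10 CPM (-0.24 and -0.23), and under both Fip1l1 no longer passed the 2-fold limit.

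The DEGs that rose were 5 of these 16 genes, Clp1, Cpsf7, Cstf2t, Rbbp6 and Nudt21, where 23.8% of all genes tested were DEGs higher in KO. Clp1, a subunit of cleavage factor II, rose from 1.68 to 4.28 CPM in controls to 21.5 to 38.3 CPM in KO (log2 change 3.20 ± 0.29, SE). Cpsf7 and Nudt21, subunits of cleavage factor I, rose by 2.64 ± 0.29 and 1.22 ± 0.16 on the log2 scale. Cstf2t, the autosomal paralog of the RNA-binding subunit Cstf2, rose from 28.9 ± 4.33 to 167 ± 41.1 CPM, and Rbbp6, a cleavage cofactor, from 10.4 ± 3.12 to 39.7 ± 2.70 CPM (SD, n = 4 each). The groups did not overlap for any of these 5, which were named as DEGs, while 48.4% of all genes tested did not overlap.

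Of 20 tested mRNAs that encode proteins binding CPEB or keeping its targets silent, 11 fell and 5 rose, where 24.1% of all genes tested were called lower and 31.2% higher. Their median log2 change was -0.45 against 0.12 for all genes tested. The 10 oocyte markers moved alongside, with 6 lower, 0 higher and a median of -0.40, and their part in this result was not tested. The eIF4E-binding repressor Eif4enif1 fell from 343 to 546 CPM in controls to 157 to 192 CPM in KO, and Pabpc1l, the poly(A)-binding protein of oocytes, from 136 to 185 CPM to 40.9 to 61.5 CPM. Papd4, also called Tent2 or GLD-2, the cytoplasmic poly(A) polymerase, fell from 29.2 ± 7.31 to 18.4 ± 3.46 CPM (SD, n = 4 each; log2 change -0.66 ± 0.19, SE; adjusted p = 0.0111, edgeR quasi-likelihood test), a call that was lost with library size alone (-0.37) and with TMM on genes of at least 10 CPM (-0.40). Parn, a deadenylase described in the CPEB complex of frog oocytes, gave a log2 change of -0.20 with a 95% interval from -0.46 to 0.052, and was not called. The other DEGs that fell, named after their values were seen, were Lsm14b (log2 change -1.01), Ybx2 (-1.12) and Zar1l (-1.12), all RNA-binding proteins that store maternal mRNAs.

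Tob1, which links CPEB3 to CCR4-NOT, rose in contrast from 7.87 to 10.5 CPM in controls to 37.0 to 44.2 CPM in KO, a log2 change of 2.10 ± 0.14 (SE). The RNA helicase Ddx6 rose from 36.7 to 55.7 CPM to 137 to 216 CPM, and Msi2, a Musashi protein that acts beside CPEB on 3′UTRs, from 28.0 to 33.4 CPM to 59.9 to 93.3 CPM. Msi1 had 0 to 3 counts in the control libraries, all at the detection floor, and 4 to 12 counts in the KO libraries, at least 2.77-fold higher than a floor of 3 counts per control library; its call was lost without control library 1 or KO library 2. Patl2, named after its values were seen, was the other gene that rose (log2 change 0.46), a call lost without control library 2 or 4 (0.38 each). The DEGs among the 20 tested mRNAs were 4 that rose and 5 that fell. Of all genes tested, 23.8% were DEGs higher in KO and 6.56% were DEGs lower. The 4 and 5 became 4 and 2 when KO library 4 was left out. Under library size alone or TMM on genes of at least 10 CPM, 2 DEGs fell.

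**Figure D5:**
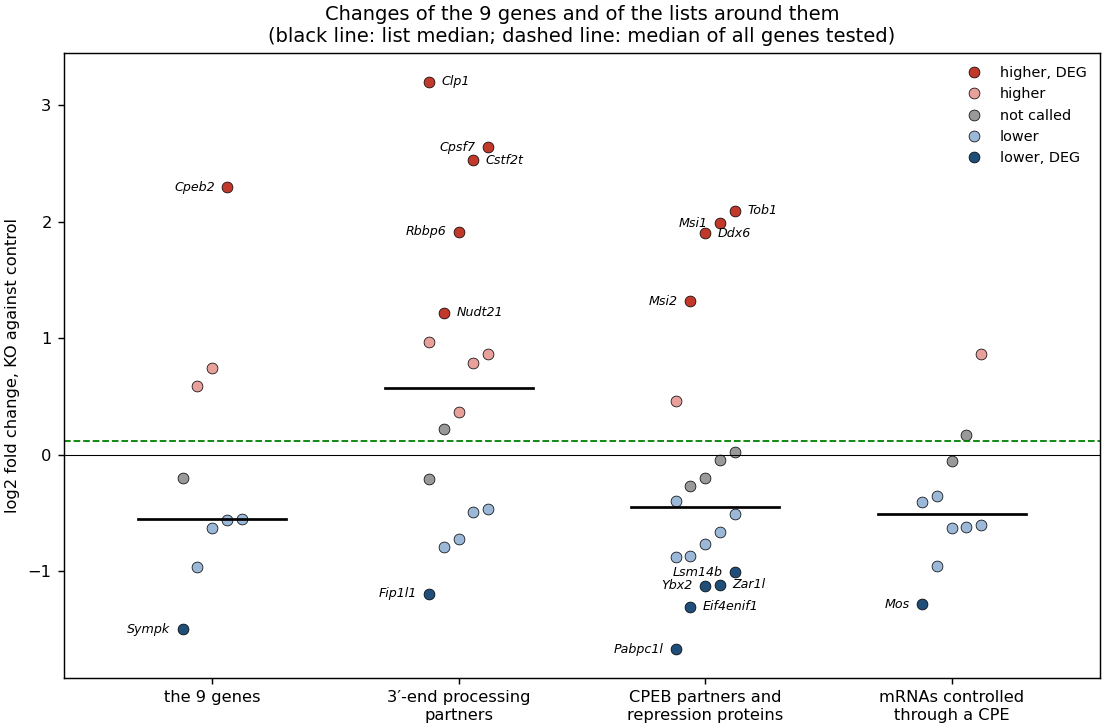
Log2 fold change in CNOT7&8 KO against control oocytes, on the vertical axis, for the 9 genes and the 3 lists around them, with a point per gene, colours for the call and a black line at the list median. The dashed line is the median of all genes tested, 0.12. The processing partners spread from -1.19 for Fip1l1 to 3.20 for Clp1, while most CPEB partners and CPE-controlled mRNAs lie below zero; the fitted value drawn for Msi1 rests on control libraries at the detection floor.

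Among 10 mRNAs listed as controlled through a CPE in oocytes, 7 fell and 1 rose, where 24.1% of all genes tested were called lower and 31.2% higher. The median log2 change of the 10 was -0.51. The list includes Fbxo43, which encodes Emi2. In the paper's reporter assay, removing the CPE from the Emi2 3′UTR made no significant difference. The oocyte markers, with 6 of 10 lower and 0 higher, moved alongside this list too, and their part in it was not tested. The 1 that rose became 2 with library size alone, upper quartile scaling or a filter of 1 CPM in 4 libraries, and 3 with TMM on genes of at least 10 CPM. Mos, the kinase that activates the MAP kinase pathway in meiosis, was the DEG of this list, with 624 ± 236 CPM in controls and 257 ± 75.8 CPM in KO (SD, n = 4 each; log2 change -1.28 ± 0.29, SE; adjusted p = 0.00289, edgeR quasi-likelihood test). Its groups overlapped, from 281 to 786 CPM in controls and from 158 to 342 CPM in KO. Sycp3, a component of the synaptonemal complex named after its values were seen, was the gene that rose, from 18.2 ± 2.88 to 33.0 ± 6.37 CPM (SD, n = 4 each).

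Genes whose pattern over the 8 libraries was close to that of each Cpeb gene were found by the root mean square difference of their centred log2 CPM, among the 13758 genes that averaged 1 CPM or more. Close to Cpeb1 were Prpf8 (0.058) and 1110037F02Rik (0.073), and the closest to Cpeb2 were Megf9 (0.18), B230354K17Rik (0.22) and Zfp507 (0.27). The closest to Cpeb3 were Dgke (0.070), Med12l (0.082) and Luzp1 (0.087), and the closest to Cpeb4 were Akap13 (0.068), Tanc2 (0.074) and Gxylt1 (0.079). Cpeb3 and Cpeb4 were close to each other, at a difference of 0.12, with Cpeb4 at position 46 in the order for Cpeb3 and Cpeb3 at position 25 in the order for Cpeb4. Cpeb1 stood far from both, at position 7188 in the order for Cpeb3 and 6324 in that for Cpeb4.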

How the data were processed

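RNA of GV oocytes was measured in 8 libraries, 4 for each genotype, grouped and numbered by the deposited labels. The authors depleted ribosomal RNA, mapped read pairs to GRCm38 with STAR 2.6.1d and deposited raw counts per gene, without normalization or pooling; edgeR 3.11 is also named in the submitters' processing notes. The counting tool, annotation release and strand setting are not given in the sources used here. The methods and the labels name different Illumina kits, both stranded. The methods name a TruSeq Stranded mRNA LT kit and describe it as depleting ribosomal RNA, and the labels name a Total RNA kit. Which kit was used could not be settled from the sources used here.

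The analysis used edgeR 4.0.16 on R 4.3.3. A gene entered the test at 0.2 CPM or more in at least 2 libraries, as did 19241 of 46078, and the quasi-likelihood test was run after TMM scaling, with Benjamini-Hochberg adjustment over all of them; the script was tested on simulated data. Calls needed an adjusted p of at most 0.05, and DEGs also a fold change of at least 2. Single values, shares and ratios were compared by exact permutation over the 70 assignments of 8 libraries, two-sided. CPM are counts over the TMM-scaled library size. The permutation tests of single values used log2 CPM without a prior count. Log2 CPM with a prior count of 2 served the search for genes of close pattern and the correlations between libraries. Positions, lengths and 3′UTRs came from GENCODE vM21 on GRCm38. Alternatives were 4 scalings (library size, RLE, upper quartile, TMM restricted to genes averaging 10 CPM), 2 filters, DESeq2 1.42.0, edgeR's exact test, a replicate block and leaving out libraries; leaving out control library 1 with KO library 4 was added after seeing the data.

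The 9 genes and the lists were chosen with earlier results of these data known. Named from each list were its DEGs, or the 6 of largest change, and Fip1l1, Wdr33, Papola, Papd4, Eif4enif1 and Parn for their roles; other listed genes were named after their values were seen. Some items of the lists and sequences are not reported here. Of the marker lists, 0 of 10 oocyte markers rose and 6 fell, 5 of 11 tested granulosa markers rose and 1 fell, and 2 of 2 tested blood markers rose.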

Additional observations from a re-analysis of the deposited data

Results flagged for a closer look

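In each group of 4 libraries, a library was marked when its distance to the nearest other library, as a share of the range of the group, was above the 95% critical value of Dixon's test for 4 values. This marked 7 of 74 groups, where chance gives about 3.7, and all 7 concerned control library 1 (2 groups) or KO library 4 (5 groups). Among the 9 genes, Cpeb3 was at 128 CPM in KO library 4 and at 83.1 to 86.8 CPM in the other KO libraries, and Cpeb4 was at 113 CPM in control library 1 and at 71.9 to 76.4 CPM in the other control libraries. Among the listed genes, Papd4 was at 40.1 CPM in control library 1 against 25.1 to 26.2 CPM. In KO library 4, Eif4enif1 was at 192 CPM against 157 to 161 CPM and Sycp3 at 42.5 CPM against 29.1 to 30.9 CPM, while Cpsf4l was low at 498 CPM against 656 to 681 CPM and Zar1l at 163 CPM against 243 to 246 CPM. Without both libraries, an alternative added after seeing the data, the log2 changes were 0.74 for Cpeb3, 0.54 for Cpeb4, -0.54 for Papd4, -1.21 for Eif4enif1, 0.71 for Sycp3, -0.82 for Cpsf4l and -1.10 for Zar1l, and all 7 calls held.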

How the results depend on the processing

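Scaling moved the most values. With library size alone, Cpeb1 (-0.26), Cpsf1 (-0.35), Cpsf3 (-0.27), Wdr33 (-0.21), Cstf1 (-0.19) and Papd4 (-0.37) lost their call and Cpsf2 (0.079) and Parn (0.084) changed sign without a call; 2 of the 9 genes were lower and 2 were DEGs higher, the processing partners had 3 lower, 8 DEGs higher and 0 DEGs lower, the CPEB partners 2 DEGs lower, and the CPE-controlled mRNAs 2 higher and 1 DEG higher. With TMM on genes of at least 10 CPM, Cpeb1 (-0.28), Cpsf1 (-0.39), Wdr33 (-0.24), Cstf1 (-0.23) and Papd4 (-0.40) lost their call and Cpsf2 (0.048) and Parn (0.051) changed sign; 3 of the 9 genes were lower and 2 were DEGs higher, the processing partners had 3 lower, 8 DEGs higher and 0 DEGs lower, the CPEB partners 2 DEGs lower, and the CPE-controlled mRNAs 3 higher and 1 DEG higher. Upper quartile scaling and the filter of 1 CPM in 4 libraries each gave 2 CPE-controlled mRNAs higher. The median of all genes rose by 0.29, 0.25 and 0.10 (log2) under library size alone, TMM at 10 CPM and upper quartile scaling. Over all genes tested, 5997 were higher and 4631 lower, against 7744 and 2618 with library size alone and 7589 and 2865 with TMM at 10 CPM; DEGs that fell went from 1263 to 587 and 628. Leaving out each library in turn gave 0.38 to 0.77 for Cpeb4 and -0.79 to -0.50 for Cpsf1, both with lost calls, 1 to 2 DEGs lower among the 9 genes, 2 to 5 among the CPEB partners and 1 to 2 among the CPE-controlled mRNAs; no other gene of the 9 lost its call. The cause was not tested. Correlations of deviations of same-numbered libraries were -0.15, -0.10, 0.24 and -0.28. Deviations from the mean of 4 libraries depend on each other, so these values cannot tell whether replicate numbers pair the samples. With the replicate block, 3 of the 9 genes were higher and 5 lower, with log2 changes of -0.52 for Cpeb1, 2.27 for Cpeb2 and -1.53 for Sympk, and 5511 and 4201 of all genes; no call on the 9 genes changed. Not every library correlated best with its own number; control 1 and KO 4 correlated at 0.59. DESeq2 and edgeR's exact test changed no call on the 9 genes. Low counts limit Cpeb2 (29 to 148 in controls) and Msi1, among others.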
